A study of Mus musculus with 8 samples.

Results

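Tyrosine hydroxylase, encoded by Th, and 8 further genes that make, store or degrade catecholamines were followed in RNA of mouse pancreatic islets labelled as lacking the chromatin deacylase gene Sirt6 through either of a pair of Cre drivers. The 9 genes were Th, Ddc, Dbh, Pnmt, Slc18a1, Slc18a2, Maoa, Maob and Gch1, and all 9 were found by symbol among the 22609 symbols of the deposited count table. Th was chosen because it was higher in both knockouts, so its knockout-over-control values are given as a description without a test, whereas the other 8 were chosen for what they do. Of the 9, 6 passed the filter on low counts that left 15041 genes for testing: Th, Ddc, Gch1, Slc18a1, Maoa and Maob.

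The 8 libraries, in 4 groups of 2, came from islets of male mice 8 to 9 weeks old with a mixed genetic background, and the islets had been kept in medium for 4 hours after isolation. BKO islets were MIP1-CreERT Sirt6 f/f, where a tamoxifen-inducible Cre under an insulin promoter acts in beta cells, and were taken 2 weeks after tamoxifen. BKO control replicate 1 was MIP1-CreERT Sirt6 f/+ and replicate 2 was MIP1-CreERT Sirt6 +/+. EKO islets were Ngn3-Cre Sirt6 f/f, where Cre acts in endocrine progenitors and therefore reaches the islet endocrine cell types that descend from them, and EKO controls were Ngn3-Cre Sirt6 +/+. Every library, controls included, thus carried a Cre transgene, no library came from mice without one, and the labels do not say whether BKO controls received tamoxifen. Only the BKO controls are known, by their unlike genotypes, to be separate animals, so p-values measure the spread between these libraries, which may be technical.

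Catecholamines are made from tyrosine in a fixed order. Tyrosine hydroxylase makes L-DOPA with the help of the cofactor tetrahydrobiopterin, whose synthesis starts with GTP cyclohydrolase, encoded by Gch1, and DOPA decarboxylase, encoded by Ddc, turns L-DOPA into dopamine. Dopamine beta-hydroxylase, encoded by Dbh, makes noradrenaline and Pnmt makes adrenaline, the vesicular monoamine transporters VMAT1 and VMAT2, encoded by Slc18a1 and Slc18a2, load the amines into granules, and the monoamine oxidases encoded by Maoa and Maob break them down. In islets, dopamine and noradrenaline are known to restrain insulin secretion through receptors on beta cells, and tyrosine hydroxylase protein is known from a subset of mouse islet cells as well as from the sympathetic nerves that reach the islet.

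The promoter of Th is shown because Th is the gene on which the results turn, and that of Slc18a2 because it was the only other of the promoters found that held the same motif. Both are RefSeq sequences of build GRCm38.p6, read 5′ to 3′ on the strand of the gene from 250 bases before to 50 bases after the annotated start, with a full cAMP response element (TGACGTCA, which reads the same on both strands) in capitals. The Th promoter lies at chr7:142899946-142900245 on the minus strand and that of Slc18a2 at chr19:59260628-59260927 on the plus strand.
Th: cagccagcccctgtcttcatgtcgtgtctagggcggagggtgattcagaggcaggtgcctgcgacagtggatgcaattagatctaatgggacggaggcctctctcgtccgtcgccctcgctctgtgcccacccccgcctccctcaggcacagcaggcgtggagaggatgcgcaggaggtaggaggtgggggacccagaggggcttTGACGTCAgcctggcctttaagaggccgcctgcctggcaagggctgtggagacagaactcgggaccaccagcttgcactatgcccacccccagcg
Slc18a2: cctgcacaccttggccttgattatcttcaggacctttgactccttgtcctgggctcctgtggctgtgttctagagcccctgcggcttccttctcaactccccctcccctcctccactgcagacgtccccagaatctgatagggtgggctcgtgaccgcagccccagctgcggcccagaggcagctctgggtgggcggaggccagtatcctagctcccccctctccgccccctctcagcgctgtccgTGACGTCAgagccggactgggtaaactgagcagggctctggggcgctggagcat
The element began 45 bases before the start of Th (position -45) and 4 bases before the start of Slc18a2 (position -4). It occurred in 588 of all 32851 promoters of the same length, or 1.79%. The AP-1 motif TGACTCA (present in 5.20% of promoters) and the TATA box letters TATAAA (13.6%), searched on both strands, were in neither of the printed windows. Promoters of 6 of the 9 genes were in the table, and those of Dbh and Maoa held none of the 3 motifs. One of the 2 Ddc promoters and the Gch1 promoter held only the TATA letters, on the opposite strand.

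Reads assigned to genes numbered 38029994 and 44442165 in BKO, 43198451 and 37302246 in BKO controls, 22592798 and 22662190 in EKO and 23673180 and 22330252 in EKO controls, and levels are given as counts per 1000000 (CPM) after scaling by the trimmed mean of M values (TMM). Reads over the whole Sirt6 gene were not lower in knockouts. Sirt6 was at 16.8 and 22.8 CPM in BKO, against 18.8 and 12.6 CPM in BKO controls, and at 24.2 and 21.6 CPM in EKO, against 24.4 and 17 CPM in EKO controls. The counts do not separate the floxed part of the gene, which the labels do not give, from the rest, so they do not check the labels, and BKO and EKO here mean the libraries labelled so. All 8 beta cell markers and all 6 alpha cell markers were above 1 CPM in every library, as the tissue label implies. The EKO-model libraries numbered 1 stood apart. The summed level of the acinar cell markers was 2017 CPM in EKO replicate 1 and 7430 CPM in EKO control replicate 1, against 76.9 to 745.5 CPM in the other 6 libraries, and that of stellate cell markers was 955 and 2385 CPM against 28.5 to 282.5 CPM. The immediate early gene Fos was at 391 and 283 CPM in these libraries and at 16.2 to 50.5 CPM in the rest. For the catecholamine genes that were tested, EKO values without both of them are therefore given, and for other genes and lists they are not.

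Th was higher in the libraries labelled BKO and EKO than in their controls, and the difference was larger in the EKO model. It was at 54.4 and 77.1 CPM in BKO, against 24.1 and 17.3 CPM in BKO controls. It was at 279 and 421 CPM in EKO, against 38.1 and 29.2 CPM in EKO controls. In each model the lower knockout library was above the higher control library, and the EKO libraries were above all 6 others. Means were 65.8 ± 16.1 CPM in BKO and 20.7 ± 4.78 CPM in BKO controls (SD, n = 2 each), and 350 ± 101 CPM in EKO and 33.7 ± 6.30 CPM in EKO controls (SD, n = 2 each). The log2 fold change was 1.67 ± 0.31 (SE) in BKO and 3.38 ± 0.33 (SE) in EKO, which corresponds to 3.18-fold and 10.4-fold. These values are what Th was chosen for. Across all tested genes, 16.3% had both BKO libraries above both controls, 12.5% had both EKO libraries above both controls, and 4.47% had both. A log2 fold change of at least 1 in both models was found for 85 genes, or 0.565%. The EKO effect exceeded the BKO effect by 1.71 ± 0.43 (SE) on the log2 scale, a difference that involves the same values and was not tested either. Between the control groups, BKO controls (24.1 and 17.3 CPM) were below EKO controls (38.1 and 29.2 CPM), but the Cre driver and any sequencing batch that goes with the model cannot be told apart.

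With each library left out in turn the BKO log2 fold change was between 1.39 and 1.93, and that of EKO between 3.05 and 3.65. Without both EKO-model libraries numbered 1 the EKO value was 3.84. The authors' deposited table of the BKO model lists 99 genes, of which 62 had a positive log2 fold change. That of Th was 1.10, at place 6 counted down from the largest rise. In the authors' deposited table of the EKO model, 129 of 243 genes had a positive log2 fold change. There that of Th was 2.49, at place 2 in the same order. Th was the only one of the 9 genes in either of the authors' deposited tables, whose tool and selection rule are not stated.

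**Figure D1:**
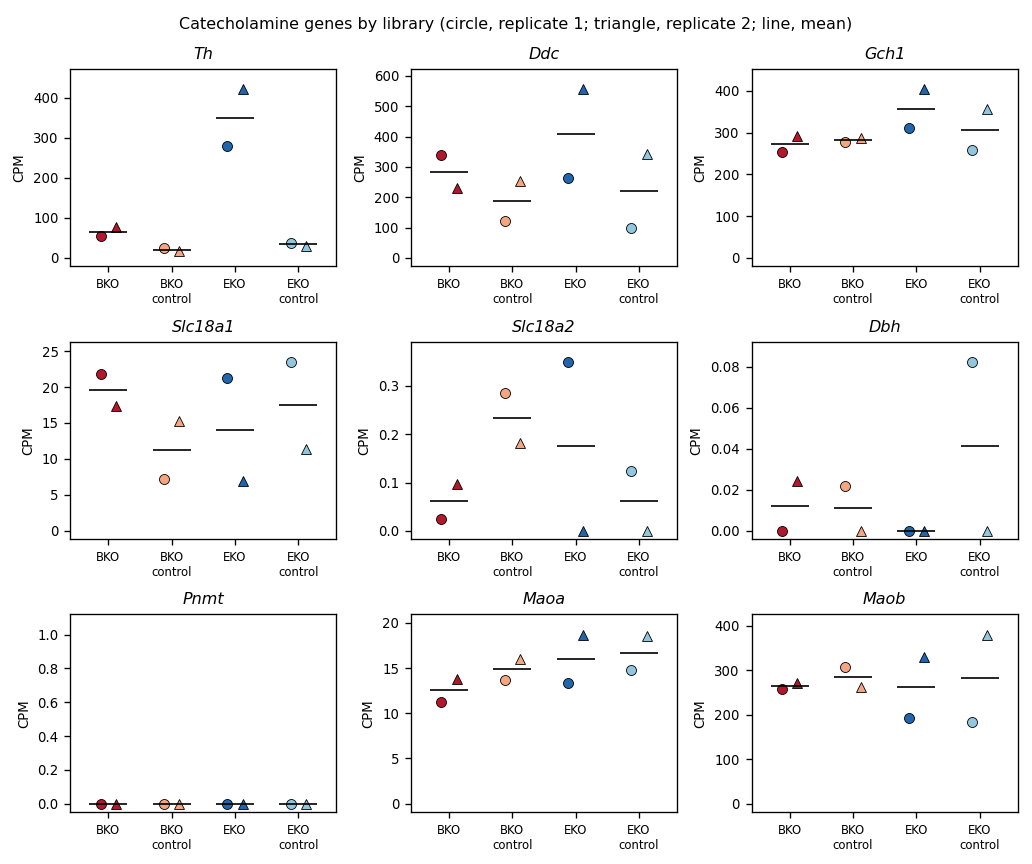
Levels of the 9 catecholamine genes in CPM (linear axes that start near 0), one panel per gene, with 2 libraries per group as points and the group mean as a line. Th stands at 279 and 421 CPM in EKO and at 54.4 and 77.1 CPM in BKO, above its controls in each, while the groups of Ddc, Gch1, Maoa and Maob overlap within each model and Dbh and Pnmt are at or near 0.

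Because bulk islet RNA was measured, more cells that contain Th RNA and more Th RNA per cell cannot be told apart. Set against the beta cell transcript Ins2, there were 576 and 538.5 Th reads per 1000000 Ins2 reads in BKO, against 281 and 206 in BKO controls, and 2626 and 2322 in EKO, against 516 and 192 in EKO controls. The groups did not overlap on this scale, which uses the same Th values for which Th was chosen and is a description only. Alpha cell markers had summed levels in EKO of 22357 and 9195 CPM, against 28050 and 37811 CPM in EKO controls, and 6 of 6 members had a negative log2 fold change (median -0.97), with none past the adjusted test. The acinar marker sums were 209 and 76.9 CPM in BKO, against 745.5 and 564 CPM in BKO controls, and 2017 and 217 CPM in EKO, against 7430 and 527 CPM in EKO controls. These sums did not overlap in BKO and overlapped in EKO, and of the 9 acinar markers tested 0 passed the adjusted test in either model. That test was passed by 0% of all genes in BKO and 0.00665% in EKO. The part of these marker differences in the Th values was not tested.

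Sympathetic neurons and chromaffin cells are known sources of Th RNA outside the islet. Their 14 markers, with Th left out, summed to 12.6 and 23.4 CPM in BKO, against 27.1 and 15.2 CPM in BKO controls, and to 43.4 and 28.2 CPM in EKO, against 38.9 and 25.9 CPM in EKO controls. The number of markers above 1 CPM ranged from 1 to 5 in BKO, against 3 to 5 in BKO controls, and from 3 to 8 in EKO, against 3 to 7 in EKO controls, and Tbx20 had 0 reads in all 8 libraries. Of the 14, 10 were tested, of which 0 were higher and 10 lower in BKO and 7 were higher and 3 lower in EKO, with none past the adjusted test. Over all genes 0% passed it in BKO and 0.00665% in EKO. Eya1, a transcription cofactor gene, was at 9.18 and 10.5 CPM in BKO, against 11.6 and 9.29 CPM in BKO controls, and at 21.9 and 22.4 CPM in EKO, against 18 and 19.8 CPM in EKO controls. In EKO replicate 2, which had the highest Th of all libraries, 5 of the 14 markers had 0 reads and 3 were above 1 CPM. Those with 0 reads in that library included the transporter gene Slc6a2, the transcription factor gene Phox2a and Dbh. In EKO replicate 1, with Th at 279 CPM, 3 markers had 0 reads and 8 were above 1 CPM. Its marker sum of 43.4 CPM was the highest of all 8 libraries. In EKO control replicate 2, 7 markers had 0 reads and 3 were above 1 CPM, against 1 and 7 in EKO control replicate 1. At the depth of EKO replicate 2, 3 reads, the limit that 0 reads allows, correspond to 0.14 CPM, which covers counting error only. The part of nerve or chromaffin RNA in the Th values was not tested. Phox2a was at 0.832 CPM in EKO replicate 1, its highest value.

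In the genome Th has Ins2 and Igf2 on one side and Ascl2, Tspan32 and R74862 on the other, per the RefSeq gene order of GRCm38.p6, and Mir483 next to Igf2 had 0 reads. Ins2 was at 94468 and 143205 CPM in BKO, against 85724 and 84130.5 CPM in BKO controls, a log2 fold change of 0.48 ± 0.57 (SE). It was at 106285 and 181444.5 CPM in EKO, against 73897.5 and 152504 CPM in EKO controls, or 0.35 ± 0.57 (SE), and the groups were apart in BKO and overlapped in EKO. Igf2, a growth factor gene, was at 1.14 and 3.68 CPM in BKO, against 4.51 and 3.47 CPM in BKO controls (log2 fold change -0.72 ± 0.94), and at 2.41 and 10.4 CPM in EKO, against 1.60 and 5.76 CPM in EKO controls (0.80 ± 0.94). R74862 was at 1.60 and 1.97 CPM in BKO, against 0.941 and 1.06 CPM in BKO controls, and at 1.88 and 2.06 CPM in EKO, against 1.28 and 1.53 CPM in EKO controls, so that both knockout libraries were above both controls in each model, as for 16.3% of all genes in BKO, 12.5% in EKO and 4.47% in both. Ascl2 had 3 reads in all libraries together. Mir483 and Ascl2 were not tested. Of the tested neighbours, Ins2, Igf2, Tspan32 and R74862, none passed edgeR's quasi-likelihood test after Benjamini-Hochberg adjustment (adjusted p of 1 in each). Their unadjusted p was 0.103 or higher. The table of tested genes had 0% called in BKO, with 0.977% at an unadjusted p under 0.05, and 0.00665% and 3.70% in EKO.

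**Figure D2:**
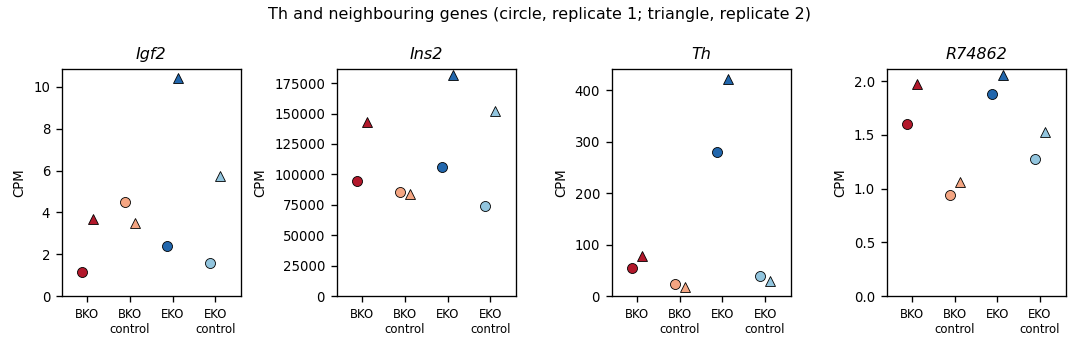
Levels in CPM (linear axes from 0) of Th, of Ins2 and Igf2 on one side of it and of R74862 on the other, by group, with each library as a point. The Th panel separates EKO at 279 and 421 CPM from every other library, whereas Igf2 overlaps between knockouts and controls of each model, Ins2 overlaps in EKO and lies higher in BKO, and R74862, between 0.941 and 2.06 CPM, lies higher in the knockout libraries of each model.

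Neither Ddc nor Gch1, the genes of the next step and of the cofactor, passed the test. Ddc, which encodes the enzyme that makes dopamine, was at 340 and 229 CPM in BKO, against 123 and 254 CPM in BKO controls. It was at 263 and 557 CPM in EKO, against 99.5 and 344 CPM in EKO controls. Its groups overlapped in both models, and the replicates differed 1.48-fold in BKO, 2.06-fold in BKO controls, 2.12-fold in EKO and 3.45-fold in EKO controls. The log2 fold change was 0.59 ± 0.67 (SE) in BKO (edgeR, adjusted p = 1) and 0.89 ± 0.67 in EKO (edgeR, adjusted p = 1), and the mean of both effects was 0.74 ± 0.48. The EKO value was 1.33 without EKO replicate 1, 0.25 without EKO replicate 2 and 0.22 without EKO control replicate 1. With EKO control replicate 2 left out it was 2.05, where the edgeR adjusted p was 0.461. It was 0.69 without both EKO-model libraries numbered 1. In BKO it was 0.28 without BKO replicate 1, 0.16 without BKO control replicate 1 and 1.21 without BKO control replicate 2. The mean of both effects ranged from 0.41 without EKO control replicate 1 to 1.32 without EKO control replicate 2. The lowest Ddc levels, 99.5 and 123 CPM, were in EKO control replicate 1 and BKO control replicate 1, the libraries with the highest acinar marker sum of their own model. The part of acinar RNA in the Ddc values was not tested.

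Gch1, which starts the synthesis of the cofactor of tyrosine hydroxylase, had replicates that differed by 1.04-fold to 1.37-fold. It was at 253 and 291 CPM in BKO, against 276 and 288 CPM in BKO controls, and at 310 and 404 CPM in EKO, against 259 and 356 CPM in EKO controls. Its BKO log2 fold change of -0.05 ± 0.22 (SE) and its EKO log2 fold change of 0.22 ± 0.22 each had an edgeR adjusted p of 1. The other 7 genes of tetrahydrobiopterin synthesis and recycling were all tested. Of the 8 with Gch1, 2 were higher and 6 lower in BKO, with a median log2 fold change of -0.06 against 0.01 over all genes, and 6 were higher and 2 lower in EKO, with a median of 0.26 against -0.01. No gene of the list passed the adjusted test, which 0% of all genes passed in BKO and 0.00665% in EKO. Pcbd1, which encodes a dehydratase that recycles the cofactor after use by aromatic amino acid hydroxylases, was at 142 and 147 CPM in EKO, against 88.8 and 108 CPM in EKO controls. Its log2 fold change was 0.55 ± 0.16 (SE), with an unadjusted p of 0.0135 in edgeR and an adjusted p of 1. In BKO it was at 89.3 and 107.5 CPM, against 76.9 and 84.4 CPM in BKO controls. Qdpr, the reductase that completes the recycling, had log2 fold changes of -0.23 ± 0.26 in BKO and -0.44 ± 0.26 in EKO.

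The enzymes beyond dopamine were almost absent from the reads. Dbh, needed for noradrenaline, had 0 and 1 reads in BKO, against 1 and 0 in BKO controls, and 0 and 0 reads in EKO, against 2 and 0 in EKO controls. Pnmt, needed for adrenaline, had 0 reads in all 8 libraries. The limit that 0 reads allows was between 0.0657 and 0.14 CPM, according to depth. Neither gene passed the filter, so no test or fold change is given.

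Of the vesicular transporters, Slc18a1 was the one measured. It was at 21.8 and 17.4 CPM in BKO, against 7.22 and 15.3 CPM in BKO controls, so that both BKO libraries were above both controls. Among the 5 tested genes chosen by function it was the only one whose groups did not overlap, and only in BKO, where 30.1% of all tested genes did not overlap in either direction. The log2 fold change was 0.80 ± 0.64 (SE; edgeR adjusted p = 1). Without BKO control replicate 1 it was 0.35, and without BKO control replicate 2 it was 1.44. In EKO it was at 21.2 and 6.88 CPM, against 23.5 and 11.4 CPM in EKO controls, a log2 fold change of -0.31 ± 0.64 (edgeR adjusted p = 1). In the EKO model both libraries numbered 1 were at least 21.2 CPM and both numbered 2 at most 11.4 CPM, so the replicate number separated these libraries and the genotype did not. The direction turned to 0.28 without EKO replicate 2 and to 0.26 without EKO control replicate 1, and the value was -0.74 without both EKO-model libraries numbered 1. The EKO effect minus the BKO effect was -1.11 ± 0.90 (SE; edgeR adjusted p = 1). Slc18a2, which encodes VMAT2, had 1 and 4 reads in BKO, against 13 and 7 in BKO controls. In EKO it had 8 and 0 reads, against 3 and 0 in EKO controls, and it was not tested.

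Of the degrading enzymes Maob was far above Maoa in every library. Maob was at 257 and 270 CPM in BKO, against 306 and 263 CPM in BKO controls. It was at 193 and 330 CPM in EKO, against 183 and 380 CPM in EKO controls. Its log2 fold changes of -0.111 ± 0.387 (SE) for BKO and -0.105 ± 0.387 for EKO each had an edgeR adjusted p of 1. Maoa was at 11.3 and 13.8 CPM in BKO, against 13.7 and 16 CPM in BKO controls, and at 13.4 and 18.7 CPM in EKO, against 14.8 and 18.6 CPM in EKO controls. Its log2 fold change was -0.24 ± 0.26 in BKO and -0.055 ± 0.261 in EKO (edgeR adjusted p = 1 in each). Per kb of exon, the level of Maob was 21.5 to 39.2 times that of Maoa across the 8 libraries.

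**Figure D3:**
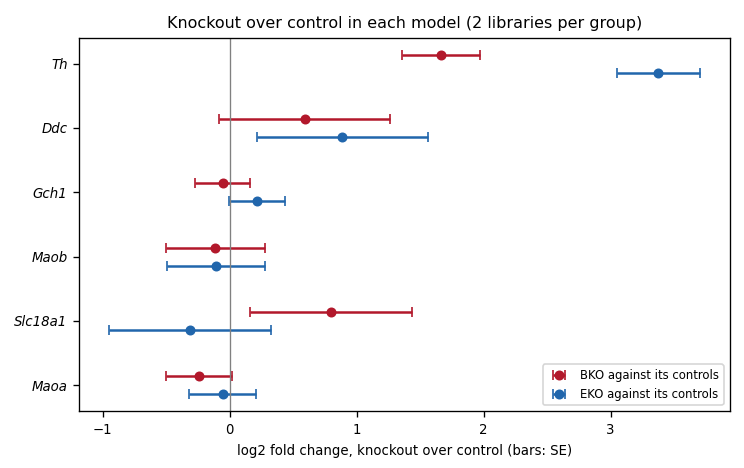
Log2 fold change of knockout over control for the 6 genes that passed the count filter, in BKO and in EKO, with bars for the standard error (2 libraries per group). Th is at 1.67 in BKO and 3.38 in EKO, and the other genes lie between -0.31 and 0.89.

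To compare levels between genes, CPM were divided by exon length. In both control groups the order had Ddc, Gch1 and Maob on top, followed by Th, then Slc18a1 and Maoa, then Slc18a2, Dbh and Pnmt. In BKO controls Maob was at 127 and 109, Gch1 at 99.6 and 104 and Ddc at 58.9 and 122 CPM per kb, values whose ranges overlap for Ddc with each of the others. Th was at 23.0 and 32.6 CPM per kb in BKO, against 10.2 and 7.33 in BKO controls, and kept place 4 in all 4 libraries of that model. In EKO it was at 118 and 178 CPM per kb, against 16.1 and 12.4 in EKO controls. It had place 2 in both EKO libraries and place 4 in both EKO controls. The EKO range of Th overlapped that of Ddc (126 and 266 CPM per kb), of Gch1 (112 and 146) and of Maob (80.2 and 137). In the same terms Gch1 was 0.947 and 0.817 times the level of Th in EKO, against 5.78 and 10.4 times in EKO controls, and 3.96 and 3.22 times in BKO, against 9.78 and 14.2 times in BKO controls. Slc18a1 and Maoa overlapped in each control group.

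**Figure D4:**
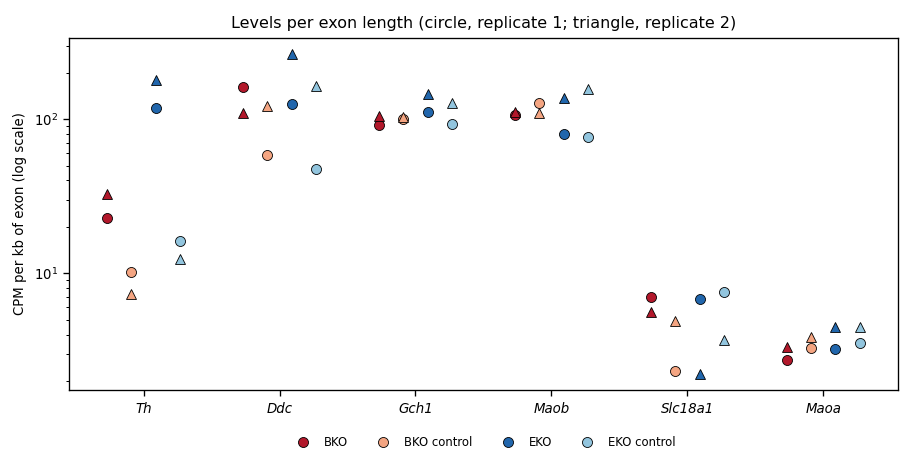
Levels per kb of exon (CPM per kb, log axis) of the 6 genes that passed the count filter, with each library as a point and groups by colour. In EKO, Th at 118 and 178 lies within the range of Ddc, Gch1 and Maob, whereas in EKO controls, at 16.1 and 12.4, it lies between them and the low pair of Slc18a1 and Maoa.

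Over the 5 tested genes chosen by function, 0 passed the adjusted test in BKO, where 0% of all genes passed, and 0 in EKO, where 0.00665% passed, and 0 had an unadjusted p under 0.05 in edgeR in either. Their median log2 fold change was -0.05 in BKO, against 0.01 for all genes, and -0.055 in EKO, against -0.01. With DESeq2, limma-voom and every other alternative run, none passed either, and the smallest adjusted p was 0.461. Without both EKO-model libraries numbered 1 the EKO log2 fold change was 0.18 for Gch1, 0.00 for Maoa and -0.21 for Maob. Their standard errors were between 0.22 and 0.67 on the log2 scale, with 2 libraries per group, and a missed threshold does not show that a level did not differ. The mean of both effects was also below the threshold for each, at 0.24 ± 0.45 (SE) for Slc18a1, -0.15 ± 0.18 for Maoa, -0.11 ± 0.27 for Maob and 0.08 ± 0.15 for Gch1. The EKO effect minus the BKO effect was 0.30 ± 0.95 for Ddc, 0.19 ± 0.37 for Maoa, 0.01 ± 0.55 for Maob and 0.27 ± 0.31 for Gch1, with an edgeR adjusted p of 1 in each. Over all genes 0% passed for that difference, with 1.01% at an unadjusted p under 0.05, and 0.00665% and 4.21% for the mean of both effects.

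Th belongs to the family of aromatic amino acid hydroxylases together with Tph1 and Tph2. Tph1, the first enzyme of serotonin synthesis outside the brain, was at 198 and 89.7 CPM in BKO, against 25.5 and 335 CPM in BKO controls, and at 0.525 and 2.62 CPM in EKO, against 0.123 and 0.0929 CPM in EKO controls. All 4 MIP1-CreERT libraries were thus above all 4 Ngn3-Cre libraries, the log2 fold change was -0.33 ± 1.11 (SE) in BKO and 3.79 ± 1.91 in EKO, and the edgeR adjusted p was 1 in each. Tph2 was at 10.1 and 9.34 CPM in BKO, against 10.4 and 9.76 CPM in BKO controls.

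Among the transport genes the most abundant by CPM were Slc3a2 and Slc7a5, whose products together form a large neutral amino acid transporter. Slc7a5 was at 331 and 527 CPM in BKO, against 361 and 278.5 CPM in BKO controls, and at 518 and 393 CPM in EKO, against 373 and 385 CPM in EKO controls. Of 11 transport genes 6 were tested, of which 4 were higher and 2 lower in each model, and none passed the adjusted test. The share of all genes that passed was 0% in BKO and 0.00665% in EKO. The uptake transporters of noradrenaline (Slc6a2), dopamine (Slc6a3) and serotonin (Slc6a4) were at 0.329 CPM or less in every library. Of 10 further degradation genes tested, 5 were higher and 5 lower in BKO and 7 higher and 3 lower in EKO. Aldh3a2, a fatty aldehyde dehydrogenase gene, was at 150 and 173 CPM in EKO, against 112.5 and 134 CPM in EKO controls (log2 fold change 0.39 ± 0.16, edgeR unadjusted p = 0.0443, adjusted p = 1). It was at 101 and 114 CPM in BKO, against 106 and 104 CPM in BKO controls. Aldh2, the mitochondrial aldehyde dehydrogenase gene, was at 11 and 17.5 CPM in BKO, against 22.1 and 19.3 CPM in BKO controls, and at 19.1 and 21.5 CPM in EKO, against 28.7 and 25.3 CPM in EKO controls. Its mean of both effects was -0.48 ± 0.19 (edgeR unadjusted p = 0.0393, adjusted p = 1). Akr1a4, an aldehyde reductase gene, was the most abundant of the list, with log2 fold changes of 0.09 ± 0.23 in BKO and 0.07 ± 0.23 in EKO.

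Tests were possible for 5 of 14 receptor genes. Adra2a, which encodes the alpha-2A adrenergic receptor that lowers insulin secretion, was at 65.8 and 90.4 CPM in BKO, against 67.6 and 85.7 CPM in BKO controls, and at 149 and 109 CPM in EKO, against 153 and 130 CPM in EKO controls. Its log2 fold change was 0.03 ± 0.24 in BKO and -0.13 ± 0.24 in EKO. Adra1a reached at most 1.11 CPM. None of the dopamine receptor genes was above 0.617 CPM in any library, and none passed the filter.

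Of 22 genes for transcription factors known to act on Th in other tissues, 19 were tested and none passed the adjusted test or an unadjusted p under 0.05 in edgeR. Over all genes 0% passed the adjusted test in BKO and 0.00665% in EKO, with 0.977% and 3.70% under the unadjusted threshold. In BKO 2 were higher and 17 lower, with a median log2 fold change of -0.19, against 0.01 over all genes, and in EKO 10 were higher and 9 lower, with a median of 0.08, against -0.01. Creb1, whose product binds cAMP response elements, was at 78 and 61.5 CPM in BKO, against 67 and 69 CPM in BKO controls, and at 60.7 and 81.5 CPM in EKO, against 62.3 and 98.8 CPM in EKO controls. Insm1, the most abundant member, had log2 fold changes of -0.04 ± 0.30 in BKO and -0.01 ± 0.30 in EKO. The activity-dependent gene Egr1 was at 648 and 59.9 CPM in EKO, against 560 and 58.8 CPM in EKO controls, so that it followed the replicate number in the EKO model and not the genotype. In BKO Egr1 was at 30.9 and 43.1 CPM, against 51.6 and 87.3 CPM in BKO controls. Fos was at 16.2 and 16.4 CPM in BKO, against 29.7 and 50.5 CPM in BKO controls, and the authors' deposited table of the BKO model gives it a log2 fold change of -0.80.

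The genes whose profile over the 8 libraries was nearest to that of Th were found by the mean absolute difference in log2 CPM after centring each gene at its own mean, over 13302 genes with a mean of at least 1 CPM. The median of this difference was 1.32 over these genes, and it was between 0.457 and 0.591 for the 8 nearest. Th itself deviated from its own mean by 1.305 on average, so a gene with a flat profile would differ from Th by that much. The comparison rests on the values for which Th was chosen and is a description. They were, in order, A730017C20Rik, Rps4y2, Krt80, F2, Apod, Ambp, Serpina1b and Pipox. F2, which encodes prothrombin, was at 5.97 and 3.61 CPM in BKO, against 1.20 and 1.42 CPM in BKO controls, and at 13.0 and 16.7 CPM in EKO, against 1.40 and 3.35 CPM in EKO controls. Apod, a lipocalin gene, was at 8.57 and 12.9 CPM in BKO, against 2.54 and 3.91 CPM in BKO controls, and at 20.7 and 21.8 CPM in EKO, against 4.81 and 5.76 CPM in EKO controls. For Ambp, the precursor of a plasma protease inhibitor, the log2 fold changes of 1.81 in BKO and 5.05 in EKO were both above those of Th. For Serpina1b and Pipox the EKO values of 4.15 and 4.99 were above that of Th. Their BKO values of -0.50 and 0.76 were below that of Th. Reads of Rps4y2 are uncertain, since it has near-identical copies.

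**Figure D5:**
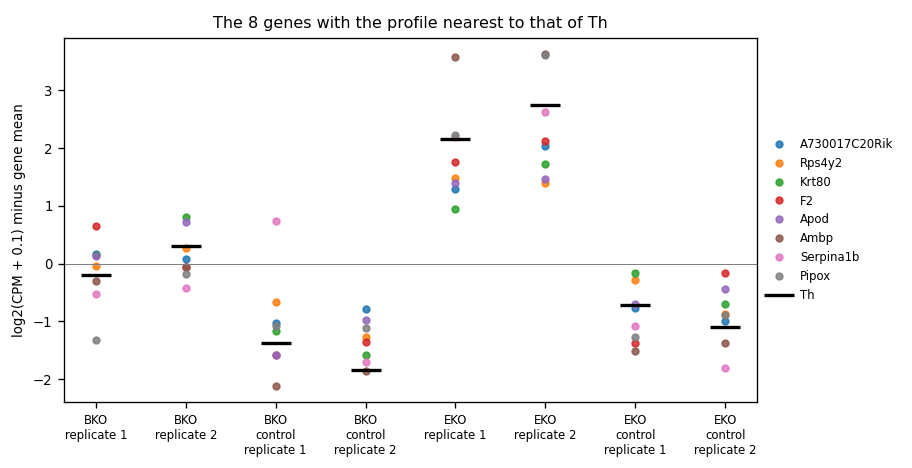
Profiles of Th (black bars) and of the 8 genes nearest to it (coloured points) over the 8 libraries, as log2(CPM + 0.1) minus the mean of the gene. The points of both EKO libraries lie above those of all control libraries for each of the 9 genes, while in BKO those of Serpina1b and Pipox do not all lie above their controls.

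A larger log2 fold change than that of Th was found for 85 of the tested genes in BKO and 40 in EKO, and for 11 in both. The more abundant of the 11 included Ambp, Glycam1, BC089597 and Gm13544. Glycam1, a gene of high endothelial venules, was high in 1 library of each knockout, at 40.9 and 0 CPM in BKO, against 8.89 and 0.0259 CPM in BKO controls, and at 0.0438 and 180.2 CPM in EKO, against 6.62 and 0.0465 CPM in EKO controls. A mean of at least 100 CPM over the 8 libraries was reached by Ambp alone among the 11, and Th averaged 118 CPM.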

How the data were processed

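The authors deposited raw counts, whole reads per gene symbol, from a stranded poly(A) library kit per the labels; per the submitters' processing notes TopHat and HTSeq were used with build mm9, with versions and the use of strand not given in the sources used here. The authors' deposited tables for each model give a log2 fold change, a p-value, an adjusted p-value, a test statistic (score) and a mean normalized signal per selected gene, per the file headers; only log2 fold changes are quoted. The rows of reads without a gene were left out of library sizes; of each library's total, reads with several alignments made up 31.6% to 39.7%, reads outside annotated genes 8.19% to 11.1% and reads on several genes 0.104% to 0.127%. All 8 columns were matched to samples by name.

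The main test was that of edgeR 4.0.16 under R 4.3.3 (quasi-likelihood F test, TMM, filterByExpr with a count minimum of 10). All 8 libraries entered a fit of 4 groups with 4 residual degrees of freedom, and Benjamini-Hochberg adjustment ran over 15041 genes with a threshold of 0.05. The standard error is the absolute log2 fold change divided by the square root of F. All 9 genes are named. From each related list the 2 most abundant genes and those with an unadjusted p under 0.05 within a model are named, besides others quoted for their place in the pathway, which were chosen after their values were seen. The members and lists were chosen with earlier results of these data known. The code was tested on simulated data. Exon lengths are unions of GENCODE M21 basic exons (GRCm38), another build than mm9, and serve for levels per kb only; in that annotation the exons of Slc18a2 overlap an antisense gene. Alternatives were DESeq2 1.42.0, DESeq2 size factors in edgeR, limma-voom (limma 3.58.1), no count filter, acinar genes left out, the replicate number as a block, fits of 4 libraries and each library left out; a fit without both EKO-model libraries numbered 1 was added after seeing the data. Values of some genes in these lists are not reported here.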

Additional observations from a re-analysis of the deposited data

How the results depend on the processing

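The 2 libraries per group limit every value here. The count of genes called was 0 in BKO with edgeR (147 at an unadjusted p under 0.05) and 9 with DESeq2 (207), and in EKO it was 1 with edgeR and 86 with DESeq2, 2 without the EKO-model libraries numbered 1, 0 in the 4-library fit, and 1 to 2 with 1 library left out. For the EKO effect minus the BKO effect it was 0 with edgeR (152 unadjusted) and 6 with DESeq2, and for the mean of both effects 1 with edgeR, 98 with DESeq2, 2 with the replicate block and 1 to 2 with 1 library left out. The replicate numbers share only a number; same-numbered libraries deviated together (correlation across genes 0.31 in BKO and 0.492 in EKO, from 2 pairs each). With the replicate block the log2 fold change of Ddc was 0.82 ± 0.54 (SE) in BKO and 0.98 ± 0.53 in EKO, and no catecholamine gene passed.

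The direction of several genes that did not pass turned with 1 library left out, and the cause was not tested. In BKO the range was -0.21 to 0 for Maob and -0.16 to 0.05 for Gch1. In EKO it was -1.34 to 0.28 for Slc18a1, -0.31 to 0.17 for Maoa, -0.57 to 0.52 for Maob and -0.03 to 0.47 for Gch1. For the EKO effect minus the BKO effect it was -0.37 to 1.45 for Ddc, -0.07 to 0.41 for Maoa and -0.46 to 0.63 for Maob, which was also 0 with DESeq2 size factors and with DESeq2, and -0.10 without the EKO-model libraries numbered 1. For the mean of both effects it was -0.27 to 0.56 for Slc18a1, -0.34 to 0.20 for Maob and -0.04 to 0.21 for Gch1.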
